A study of Mus musculus with 2 samples.

Results

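The genes described here are the nuclear genes of oxidative phosphorylation: 94 of the 21911 protein-coding genes of GENCODE M21 on the mouse build mm10. They were chosen by name, with earlier results of these data known. The names start with Nduf, Uqcr, Atp5 or Cox4 to Cox8, or are Sdha to Sdhd and Cyc1. By role they were 36 subunits of complex I, 8 complex I assembly factors, 4 subunits of complex II, 9 of complex III, 19 of complex IV and 16 of complex V, together with Cox7a2l and Atp5s. They were read out in 2 DNase-seq libraries from a fast calf muscle, the gastrocnemius, taken at 10 days of age from female B6CASTF1/J mice (an F1 hybrid). Each library was made from 3 pooled females, per its label. There was 1 group and no other genotype, treatment or age, so no value here was tested between conditions, and the 2 libraries, labelled replicates 1 and 2, are the only measure of spread.

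Oxidative phosphorylation moves electrons from NADH and succinate through complexes I, II, III and IV of the inner mitochondrial membrane to oxygen. Complex V, the ATP synthase, uses the resulting proton gradient to make ATP. Most of its proteins are encoded in the nucleus, and their promoters are textbook targets of nuclear respiratory factor 1 (NRF1), of the ETS factor GABPA (also called NRF2) and of YY1. Heart and skeletal muscle replace 3 subunits of complex IV by muscle isoforms: Cox6a2 in place of the ubiquitous Cox6a1, Cox7a1 in place of Cox7a2, and Cox8b in place of Cox8a.

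DNase-seq marks DNA that is open to cutting by DNase I, and a peak is a stretch of such DNA. A promoter peak here has at least 1 base within 1 kb of any annotated start of the gene. A peak is shared when the peaks of the 2 libraries overlap by at least 50% of either one. The height of a peak is the authors' signal, normalized to read depth, and heights are compared within a library unless both are given.

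The libraries stood apart in the number of peaks called. Replicate 1 had 114758 peaks with a median height of 1.18 and replicate 2 had 26804 with 1.48, and 26.0% and 64.6% of them were promoter peaks. The smallest step between heights was 1.80 times larger in replicate 2. Counts are therefore given for each library and also with replicate 1 reduced to as many peaks as replicate 2.

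The promoters of the isoform pairs are shown first, because the comparison of muscle with ubiquitous isoforms turns on them. Cox6a2 is missing here: it had no RefSeq promoter sequence available and was not searched for motifs. Each run is the 200 bases that precede the start site in RefSeq (GRCm38.p6, the mm10 assembly). Capitals mark every match to any of 13 motifs searched on both strands. NRF1 was searched as GCGCNTGCG and the ETS family of factors, to which GABPA belongs, as CCGGAAG. YY1 was searched as ATGGCGGC, SP1 as GGGGCGGG, CRE (the site of CREB factors) as TGACGTCA, ZNF143 as ACTACAATT and ERR, the estrogen-related receptors, as TCAAGGTCA. The muscle E-box, bound by MYOD-type factors, was searched as CAGCTG. The TEAD factors of muscle and growth genes were given GGAATG, and the TATA box of core promoters was given TATAAA. The CCAAT box was searched by its own letters, and the MEF2 and CArG sites are given by name. Overlapping matches of a motif count as 1 site, and no match of 1 motif was removed for overlapping another.
Cox6a1 (chr5:115348959-115349158, minus strand): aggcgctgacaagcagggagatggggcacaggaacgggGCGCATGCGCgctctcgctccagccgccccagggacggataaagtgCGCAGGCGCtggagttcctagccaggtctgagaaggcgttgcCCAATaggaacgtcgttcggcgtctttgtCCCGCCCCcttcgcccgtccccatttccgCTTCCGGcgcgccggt
Cox7a2 (chr9:79759854-79760053, minus strand): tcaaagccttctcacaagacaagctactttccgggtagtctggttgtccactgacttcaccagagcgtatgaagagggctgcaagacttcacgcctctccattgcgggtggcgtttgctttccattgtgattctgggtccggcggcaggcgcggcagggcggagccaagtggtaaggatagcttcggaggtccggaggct
Cox8a (chr19:7217617-7217816, minus strand): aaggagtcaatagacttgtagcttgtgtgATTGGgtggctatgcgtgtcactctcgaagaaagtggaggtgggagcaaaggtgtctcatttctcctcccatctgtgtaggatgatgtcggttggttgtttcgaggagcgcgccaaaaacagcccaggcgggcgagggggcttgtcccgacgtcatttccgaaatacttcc
Cox7a1 (chr7:30183971-30184170, plus strand): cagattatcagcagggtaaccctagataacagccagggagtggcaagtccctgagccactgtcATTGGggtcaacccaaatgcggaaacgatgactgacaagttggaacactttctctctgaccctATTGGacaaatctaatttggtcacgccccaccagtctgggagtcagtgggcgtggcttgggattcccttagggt
Cox8b (chr7:140900447-140900646, minus strand): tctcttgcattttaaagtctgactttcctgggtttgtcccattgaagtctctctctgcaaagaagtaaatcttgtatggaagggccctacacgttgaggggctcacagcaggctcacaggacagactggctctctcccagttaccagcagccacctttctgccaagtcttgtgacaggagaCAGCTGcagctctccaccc

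In the Cox6a1 run the capitals are, from the left, an NRF1 site, a further NRF1 site, a CCAAT box, an SP1 site and an ETS site. The Cox7a1 run held only CCAAT matches and the Cox8b run only 1 E-box. The Cox8a run held 1 CCAAT match, with an ETS match across the end of the run at the start site itself, and the Cox7a2 run none of the 13. These matches are letters in a reference sequence and were not read as bound sites.

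The ubiquitous isoforms had open promoters in both libraries and the muscle isoforms did not. Cox6a1 had a promoter peak of height 18.5 in replicate 1 and 3.30 in replicate 2. Cox8a had heights of 14.2 and 2.35, and Cox7a2 had heights of 8.83 and 1.82. All 3 ubiquitous promoters had overlapping peaks. Cox7a1 had a promoter peak of 1.74 in replicate 1 only, at percentile 17.3 of the genes with a promoter peak there. Cox6a2 and Cox8b had no promoter peak in either library. The lowest height among the ubiquitous isoforms in replicate 1 was thus 8.83, and the muscle isoforms did not reach it.

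The deposited intervals below a false discovery rate of 0.05 gave weak signal at the muscle promoters. The lowest rate within 1 kb of a Cox8b start was 0.00709 in replicate 1 and 0.0301 in replicate 2. At Cox6a2 it was 0.0125 in replicate 1, and replicate 2 had no interval there. At Cox7a1 it was 1.48e-10 in replicate 1 and 0.00168 in replicate 2. The authors' longer peak lists held a shared peak at Cox7a1 (heights 1.74 and 1.44), peaks at Cox8b that did not overlap (0.388 and 0.836), and a peak of 0.251 in replicate 1 alone at Cox6a2.

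**Figure D1:**
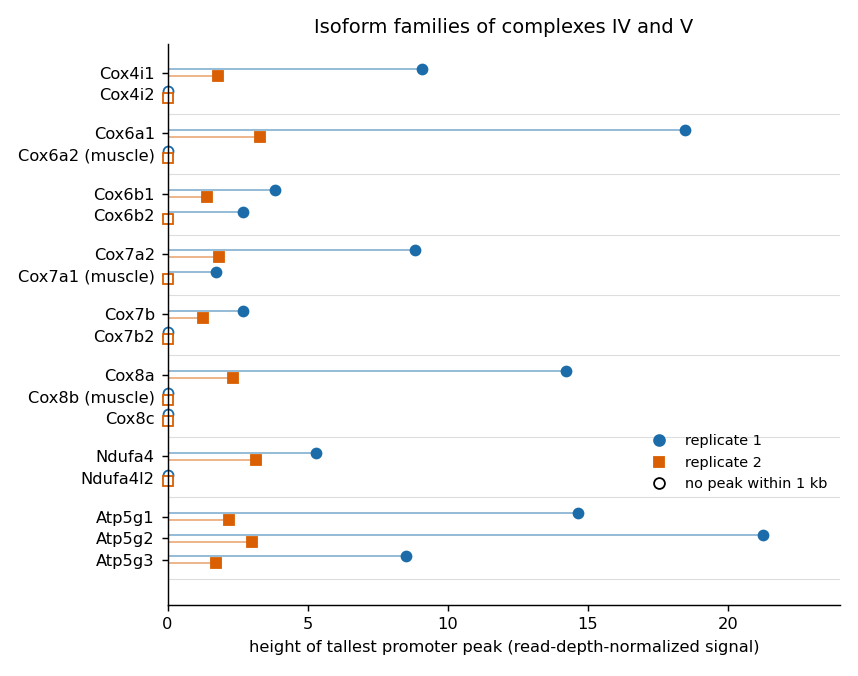
Height of the tallest promoter peak (read-depth-normalized signal, linear axis from 0) of each isoform in replicate 1 (blue circles) and replicate 2 (orange squares), by gene family. Open symbols at 0 mark no peak within 1 kb of a start. The muscle isoforms Cox6a2 and Cox8b have open symbols (no promoter peak) in both libraries, while Cox6a1, Cox7a2 and Cox8a have filled symbols in both.

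The other tissue-restricted isoforms resembled the muscle isoforms in this readout. Cox4i2, an isoform of lung known for its response to oxygen, and Ndufa4l2, which is induced by hypoxia, had no promoter peak in either library. The same held for the testis isoforms Cox7b2 and Cox8c, and for these 2 genes no interval below the false discovery rate limit was listed either. The testis isoform Cox6b2 had a promoter peak of 2.69 in replicate 1 only. Their common counterparts had peaks in both libraries: Cox4i1 at 9.09 and 1.81 (not overlapping), Cox6b1 at 3.83 and 1.39, Cox7b at 2.70 and 1.28, and Ndufa4 at 5.28 and 3.16. The isoforms Atp5g1, Atp5g2 and Atp5g3 encode the same c subunit of complex V and are not tissue-restricted in this way. Atp5g2 was the tallest of them at 21.2 and 3.01, followed by Atp5g1 at 14.6 and 2.18 and Atp5g3 at 8.49 and 1.75, in the same order in both libraries. With 1 value per library, the differences between them have no error of their own.

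Markers of skeletal muscle fibres were counted in the same way. Of 15, 8 (53.3%) had a promoter peak in replicate 1, against 66.7% of all genes, 3 (20%) in replicate 2, against 51.4%, and 2 (13.3%) an overlapping one, against 45.0% (the creatine kinase gene Ckm and the fast-fibre actinin gene Actn3). Actn3 had heights of 14.7 and 5.02, and Mylpf had 13.8 in replicate 1 only. The fibre genes Myh1, Myh4, Tnnc2, Tnnt3, Des and Atp2a1 had none in either library. A shared distal peak, over 1 kb from every protein-coding start and within 50 kb of a start of the gene, was present at 8 of the 15 markers (53.3%), against 35.1% of all genes, and the mean number of distal peaks in replicate 1 was 7.07, against 4.93. All 5 neuronal markers had a promoter peak in replicate 1 and 3 of them in replicate 2. None of the 5 macrophage or 5 cardiac markers had one in either library, 1 of 5 endothelial markers (Kdr) had one in each library, and 4 of 5 adipocyte markers had one in replicate 1 only, at heights between 0.513 and 1.46. Shared distal peaks were not particular to the muscle markers. They were present at 80% of macrophage, 60% of neuronal, 60% of cardiac, 40% of endothelial and 40% of adipocyte markers. The mean number of distal peaks in replicate 1 was 18.4 for neuronal and 5.8 for endothelial markers. It was 5.4 for cardiac, 5.0 for adipocyte and 4.4 for macrophage markers. How much of the isoform difference goes with the cell makeup of the samples was not tested. Fewer nuclei of a type and less open DNA per nucleus cannot be told apart in bulk tissue.

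Among all 94 genes, 88 had a promoter peak in replicate 1, where 66.7% of all protein-coding genes had one. In replicate 2 there were 84, against 51.4% of all genes. The same 84 had a peak in each library, against 51.0%. Overlapping peaks were present at 70 of the 94, against 45.0%. When replicate 1 was reduced to its tallest peaks, as many as replicate 2 had, 84 genes kept a promoter peak, against 49.6%. The members' shares were 93.6% and 89.4% in replicates 1 and 2 and 74.5% for overlapping peaks. With a 50% overlap required of both peaks, 37 genes (39.4%) had an overlapping pair, against 26.5% of all genes.

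Leaving out the 3 muscle isoforms and the 5 other restricted isoforms, all 86 remaining genes had a promoter peak in replicate 1 and 84 had one in replicate 2. The 2 exceptions were Cyc1, the heme-bearing cytochrome c1 of complex III, with a height of 5.23 in replicate 1, and Atp5d, the delta subunit of complex V, with 16.0. At Cyc1 replicate 2 still listed an interval with a lowest false discovery rate of 0.00178. At Atp5d it listed none, although replicate 1 had 7 peaks within 1 kb of the gene's 4 annotated starts. The replicate 2 peaks of 14 further genes did not reach the required overlap with those of replicate 1. They were Ndufa1, Ndufa3, Ndufab1, Ndufb3, Ndufc2, Ndufs8 and Ndufv1 of complex I, Sdhb, Cox4i1, and Atp5c1, Atp5f1, Atp5h, Atp5j2 and Atp5o of complex V.

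The medians of promoter heights were above those of all genes in both libraries. The median of the tallest promoter peaks was 9.83 in replicate 1, against 6.30 over all genes with one, and 2.33 against 2.03 in replicate 2. Over genes with a promoter peak in each library, the medians were 10.3 against 8.27 in replicate 1 and 2.33 against 2.04 in replicate 2. The heights ran from 1.74 to 22.3 in replicate 1 and from 0.986 to 11.6 in replicate 2. In all, 64 of 88 genes exceeded the all-gene median in replicate 1 and 56 of 84 did so in replicate 2. Spearman's rho between the libraries was 0.47 over the 84 genes with both and 0.61 over 11169 genes, as a description across genes of the same 2 libraries.

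**Figure D2:**
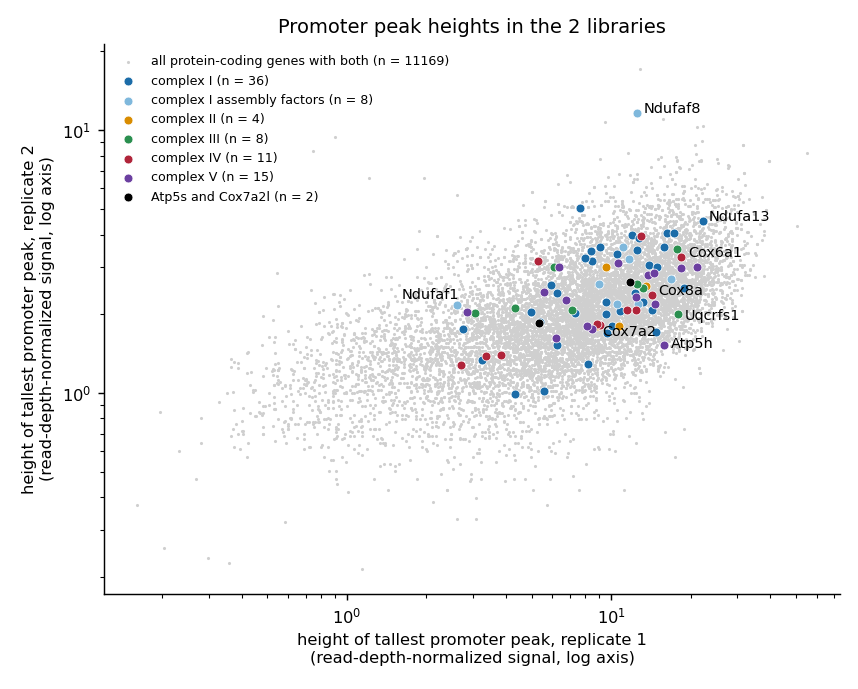
Height of the tallest promoter peak of each gene in replicate 1 (x axis) and replicate 2 (y axis), both as read-depth-normalized signal on log axes; colours give the complex, grey points are all protein-coding genes with a promoter peak in both libraries. Ndufaf8 stands above the other coloured points in replicate 2 at 11.6, and the rest of the 84 lie within the grey cloud.

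Complex I, the NADH dehydrogenase, had a promoter peak at all 36 subunit genes in both libraries and an overlapping one at 29 (80.6%). For this and the groups below, the shares of all genes were 66.7% in replicate 1, 51.4% in replicate 2 and 45.0% for overlapping peaks. The medians of complex I were 9.61 and 2.40, against 6.30 and 2.03 over all genes. By the sum of ranks over both libraries, Ndufa13 came first, with 22.3 in replicate 1 and 4.50 in replicate 2. Its tallest peak was not the same one in both libraries: it lay upstream of the start in replicate 1 (chr8:69903141-69903440) and downstream in replicate 2 (chr8:69901541-69901860), and starts of Tssk6 and Yjefn3 lie within 1 kb of that of Ndufa13. Ndufa8 followed by rank sum with 17.25 and 4.06, Ndufa7 with 16.3 and 4.05, and Ndufc1 with 15.8 and 3.58. In replicate 1 alone Ndufa6 (18.9) was taller than Ndufa8, and in replicate 2 alone Ndufs7 (5.05) was the tallest. The lowest in replicate 2 was Ndufa1, on the X chromosome, at 0.986, with 4.33 in replicate 1. The lowest in replicate 1 was Ndufc2, at 2.75, with 1.75 in replicate 2.

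The 8 complex I assembly factors, which build the complex but are not part of it, all had overlapping promoter peaks, with medians of 11.4 and 2.66. Ndufaf4 had heights of 16.8 and 2.71, Ndufaf2 of 11.6 and 3.24, and Ndufaf3 of 11.1 and 3.60. Ndufaf8 had 12.5 in replicate 1 and 11.6 in replicate 2. The replicate 2 peak was at percentile 99.97 of all genes there, and the replicate 1 peak at percentile 77.7. Both lay at the same place (chr11:120098681-120098940 and chr11:120098681-120098920), at the start of Ndufaf8, and a start of Tepsin lies within 1 kb.

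Dividing each height by the median of its library over genes with peaks in both gives a ratio of replicate 1 to replicate 2. That ratio was lowest at Ndufaf8 (0.264), at Ndufaf1 (0.296, heights 2.60 and 2.17) and at Atp5l (0.347, heights 2.85 and 2.03). It was highest at Atp5h (2.57, heights 15.9 and 1.52), the Rieske protein gene Uqcrfs1 (2.21, heights 17.9 and 1.99) and Ndufb4 (2.13, heights 14.7 and 1.70). With 1 value per library, these ratios carry no error of their own.

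Complex II, succinate dehydrogenase, had peaks in both libraries at all 4 genes. The flavoprotein gene Sdha had 13.6 and 2.55, the iron-sulfur gene Sdhb 10.7 and 1.79, and the membrane anchor genes Sdhc and Sdhd 9.56 and 3.00, and 8.87 and 1.80. Complex III had a peak in replicate 1 at all 9 genes and an overlapping one at 8, Cyc1 being the exception. By the sum of ranks over both libraries its first were the ubiquinone-binding subunit gene Uqcrq with 17.7 and 3.53, the core protein gene Uqcrc1 with 13.2 and 2.51, Uqcrh with 12.5 and 2.61, and Uqcr10 with 6.07 and 3.02. In replicate 1 alone Uqcrfs1 was taller than these, at 17.9.

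Complex IV, cytochrome c oxidase, was the only complex with genes lacking a peak in both libraries. Of its 19 genes, 13 (68.4%) had a peak in replicate 1, 11 (57.9%) in replicate 2 and 10 (52.6%) an overlapping one. These shares were near those of all genes, 66.7%, 51.4% and 45.0%. The 8 genes of the complex without a peak in replicate 2 were the 3 muscle and 5 other restricted isoforms. After Cox6a1 its first by rank sum were Cox6c with 13.0 and 3.95, Cox8a, and Cox5a with 12.4 and 2.06. Complex V had a peak in replicate 1 at all 16 genes, in replicate 2 at 15, and an overlapping one at 10. By rank sum Atp5g2 came first, followed by the catalytic beta subunit gene Atp5b with 18.4 and 2.99, Atp5f1 with 10.6 and 3.13, and Atp5mpl with 14.5 and 2.86. The supercomplex factor Cox7a2l had 5.32 and 1.84, and Atp5s 11.8 and 2.65, both with overlapping peaks.

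Another protein-coding start lay within 1 kb at 37 of the 94 genes (39.4%), against 14.5% of all genes. Of these 37, 36 had promoter peaks in both libraries and 30 an overlapping one (81.1%, against 73.8% of all genes with such a neighbour). Of the 57 genes without such a neighbour, 48 had peaks in both and 40 an overlapping one (70.2%, against 40.1%), and all 6 genes with no peak at all were among them. The start of Gabpa, which encodes the DNA-binding subunit of an ETS factor known to act on promoters of this kind, lay within 1 kb of that of Atp5j, and the genes had the same promoter heights of 6.34 and 3.00. A peak in such a stretch cannot be assigned to one gene of the pair.

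Base composition went with openness in this set as in the genome. A RefSeq promoter window of 300 bases (250 before and 50 after the start) was found for 74 of the 94 genes and for 16522 genes in all. CpG-rich windows, with at least 50% G and C and an observed to expected CpG ratio of at least 0.6, made up 75.7% of the members' windows and 47.4% of all. Overlapping promoter peaks were present at 48 of the 56 CpG-rich members (85.7%, against 74.6% of all CpG-rich genes) and at 9 of the 18 others (50%, against 22.4%). The ratio was 1.07 for Cox6a1, 0.833 for Cox7a2 and 0.842 for Cox8a, and 0.333 for Cox7a1 and 0.115 for Cox8b. Cox6a2 had no window and so no ratio.

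NRF1 letters occurred in 23 of the 74 windows (31.1%), against 9.31% of all windows, a ratio of 3.34. ETS letters occurred in 17 (23.0% against 12.3%), and YY1 letters in 7 (9.46% against 3.29%). At least 1 of these 3 was present in 39 windows (52.7%, against 21.9%), and NRF1 and ETS together in 6. Among promoters with an overlapping peak, NRF1 letters were in 36.8% of the members' windows and 15.4% of all, YY1 letters in 12.3% and 5.66%, and at least 1 of the 3 motifs in 61.4% and 35.5%. ETS letters were closer there, in 24.6% and 19.9%. By complex, NRF1 letters were in 9 of 32 windows of complex I, 2 of 7 of its assembly factors, 2 of 3 of complex II, 3 of 5 of complex III, 1 of 13 of complex IV (Cox6a1) and 6 of 13 of complex V. YY1 letters were in 6 windows of complex I and 1 of an assembly factor, and in none of the other complexes.

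The remaining motifs were closer to the background or rare. SP1 letters were in 25.7% of the members' windows and 23.1% of all, but in 28.1% and 33.4% of those with an overlapping peak. Over all windows CCAAT was in 44.6% and 38.7%, CRE in 5.41% and 2.43%, TEAD in 10.8% and 13.2%, and TATA in 9.46% and 12.9%. The muscle E-box was in 6 windows (8.11%, against 15.2%), Cox8b among them. MEF2 and CArG letters, the sites of muscle regulators, were in none of the windows searched, against 0.514% and 1.54% of all windows. The muscle isoform Cox6a2 and the restricted isoforms Cox4i2, Cox8c and Ndufa4l2 had no window and were not searched. ERR letters were in 2 windows, Atp5g3 and Sdhd (2.70% against 0.339%), and ZNF143 letters in 2, Atp5d and Uqcr10 (2.70% against 0.581%).

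**Figure D3:**
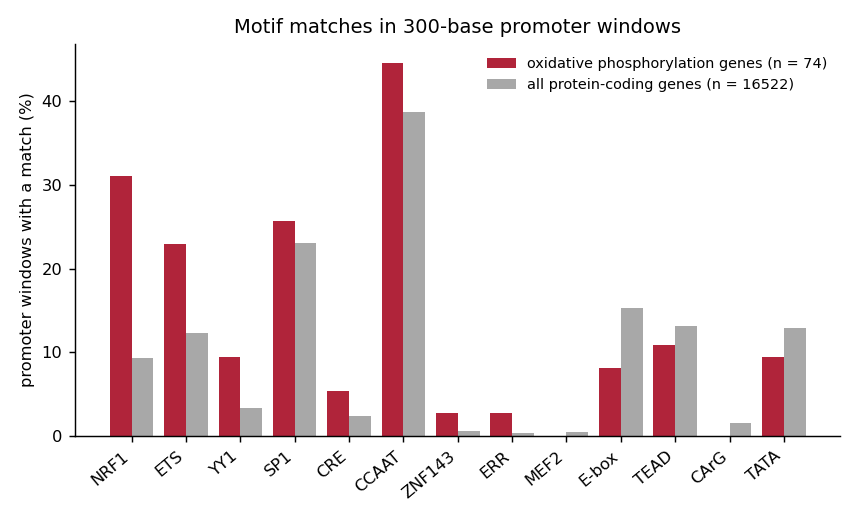
Percent of promoter windows of 300 bases with at least 1 match to each motif, for the 74 oxidative phosphorylation genes with a window (red bars) and for all 16522 genes (grey bars). The bars differ most for NRF1, 31.1% against 9.31%, and are close for SP1 and CCAAT.

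In genes with NRF1 letters, the letters were mostly inside deposited footprints, short protected stretches within open DNA. The promoters of an assembly factor and of a subunit of complex I, shown as above, have the NRF1 site in capitals (in Ndufs5 the first capitals are an E-box).
Ndufaf4 (chr4:24897883-24898082, plus strand): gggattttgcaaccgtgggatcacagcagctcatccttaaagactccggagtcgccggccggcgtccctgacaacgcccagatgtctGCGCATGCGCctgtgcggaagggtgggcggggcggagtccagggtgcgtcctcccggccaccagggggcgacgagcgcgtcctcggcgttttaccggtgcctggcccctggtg
Ndufs5 (chr4:123718187-123718386, minus strand): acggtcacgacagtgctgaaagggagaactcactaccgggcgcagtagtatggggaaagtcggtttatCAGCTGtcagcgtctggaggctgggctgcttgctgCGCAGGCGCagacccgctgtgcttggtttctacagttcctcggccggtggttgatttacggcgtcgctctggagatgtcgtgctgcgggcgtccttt

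The NRF1 sites of Ndufaf4 and Ndufs5 lay 113 and 97 bases before the start, and each was covered by a footprint, over at least 50% of its bases, in both libraries. Over the members, 27 of 30 NRF1 sites inside a promoter peak of replicate 1 were so covered (90.0%), against 78.7% of those of all genes. In replicate 2 the counts were 18 of 26 (69.2%), against 62.6%. Of 17 ETS sites, 5 were covered in replicate 1 (29.4%, against 38.2% over all genes) and 4 in replicate 2 (23.5%, against 17.6%). Of 6 YY1 sites, 2 were covered in each library (33.3%), against 60.3% over all genes in replicate 1 and 34.6% in replicate 2. Heights within the group were close with and without NRF1 letters: the median height in replicate 1 was 9.59 with a match and 9.62 without, and in replicate 2 it was 2.39 and 2.19. Over all genes the medians in replicate 1 were 11.3 with a match and 5.89 without, and in replicate 2 they were 2.32 and 1.99.

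All 88 genes with a promoter peak in replicate 1 held a footprint in it, as did 83 of 84 in replicate 2 (98.8%), where 99.2% and 96.1% of all genes with a promoter peak did so, so these counts were at the background. The median number was 4 per gene in replicate 1 and 5 in replicate 2, against 6 and 5 over all genes. Cox7a1 had 1 footprint in its replicate 1 peak. Cox6a1 had 5 and 8, Cox7a2 had 6 and 5, and Cox8a had 3 and 7 in replicates 1 and 2.

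The centres of the tallest peaks of the 2 libraries were offset from each other at these promoters. Measured from the RefSeq start to the centre of the tallest peak within 1 kb, the median was -35.5 bp (upstream) over 71 members in replicate 1 and 43.5 bp (downstream) over 69 in replicate 2. Over all genes the medians were -36.5 and 7.5 bp. In the 68 members measured in both, the replicate 2 centre lay further downstream in 51 (75%, against 59.1% of all genes). The median shift over all 68 was 90.0 bp downstream, and the median shift over all genes was smaller. Cox8a shows such a shift: the centre lay at -44.5 bp in replicate 1 and at 111 bp in replicate 2. Its peaks were 200 and 409 bp wide. Over all peaks of each library the median width was 180 bp in replicate 1 and 220 bp in replicate 2. A centre also moves when a peak is called wider, and the part of width in these shifts was not tested. In replicate 1, 78.9% of the members' centres lay within 100 bp of the start, against 61.9% of all genes, and in replicate 2 47.8%, against 40.2%.

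**Figure D4:**
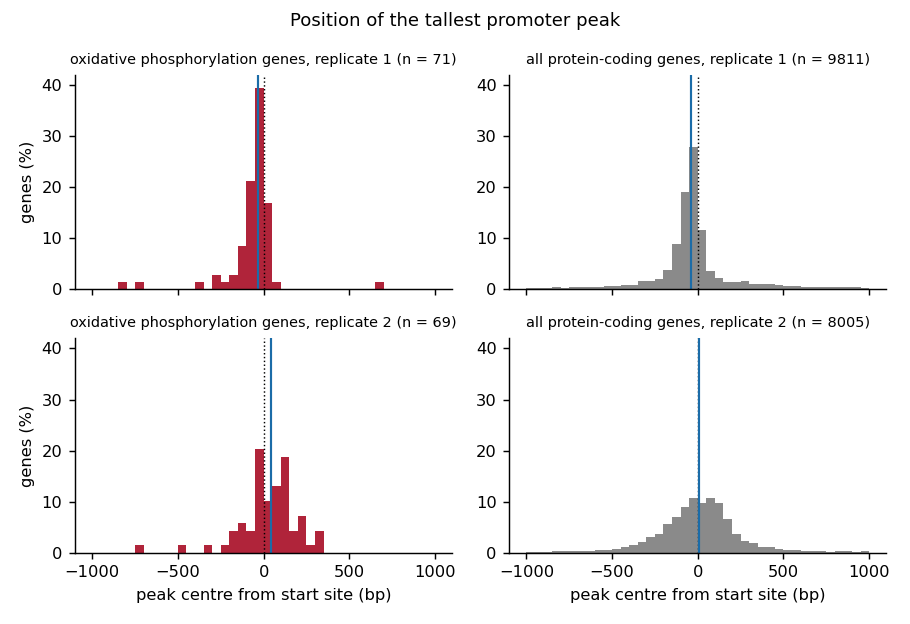
Distance from the RefSeq start to the centre of the tallest promoter peak (x axis, bp, downstream positive) as the percent of genes in bins of 50 bp, for oxidative phosphorylation genes (red) and all genes (grey) in each library. The blue line is the median and the dotted line the start; the members' median moves from -35.5 bp in replicate 1 to 43.5 bp in replicate 2.

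Distal peaks, over 1 kb from every protein-coding start and within 50 kb of a start of these genes, were about as frequent as around other genes. There were 458 distinct ones in replicate 1 (a mean of 4.88 per gene, against 4.93 over all genes) and 73 in replicate 2 (0.777, against 0.826). Of the replicate 1 peaks 54 were shared. At least 1 was present at 84 members in replicate 1, where 84.0% of all genes had one, at 46 in replicate 2 (40.1%), and a shared one at 37 (35.1%). The members' shares were 89.4%, 48.9% and 39.4%. Most had the start of another gene as the nearest: a member's start was the nearest protein-coding start for 26.2% of the replicate 1 peaks and 23.3% of the replicate 2 peaks. By position, 223 of the 458 lay between protein-coding genes, 180 in introns and 55 in exons.

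Of the 54 shared distal peaks, 13 had a member's start as the nearest, and Cox8b, with no promoter peak, had 2 of them. One of them lay 8.27 kb upstream of its start, between genes (chr7:140908641-140908800), with a height of 1.99 in replicate 1 and 1.19 in replicate 2. They were the only distal peaks within 50 kb of Cox8b in either library.

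Cox7a1 had 4 distal peaks in replicate 1 and none in replicate 2, the nearest 2.64 kb upstream with a height of 2.33. Cox6a2 had 3 in replicate 1 and none in replicate 2, the nearest 1.99 kb upstream, in an intron of Itgad, with 1.08. The nearby peaks of the other muscle isoforms were thus seen in 1 library only.

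Other genes without a promoter peak also had shared distal peaks nearest to them. Ndufa4l2 had one 1.95 kb upstream (chr10:127512921-127513120), with 8.25 and 3.48. Taller peaks of replicate 1 in that stretch, up to 15.5, were nearer to the start of Stac3, a gene of muscle excitation-contraction coupling. Cox4i2 had one 11.6 kb downstream of its start, with 4.79 and 2.93, and 22 distal peaks in all in replicate 1, the most of any member. Its ubiquitous counterpart Cox4i1 had shared peaks 5.47 kb downstream, with 5.40 and 3.74, and 10.6 kb downstream, with 1.57 and 1.58, among 13 in replicate 1.

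The most shared distal peaks, 6, were around Sdhc, and all had the start of Cfap126 as the nearest, 39.1 to 48.7 kb from that of Sdhc, so they describe the neighbourhood rather than the gene. Atp5d had 18 in replicate 1, 3 in replicate 2 and 3 shared, although it lacked a promoter peak in replicate 2. Cox4i1 and Ndufc1 also had 3 shared, and Atp5h and Atp5o had 2. In replicate 1 Atp5o and Uqcr11 had 14 each and Cox8a 13, and in replicate 2 Sdhc had the most, 8, and Ndufs1 had 3. Cox6a1 had a shared peak 10.1 kb upstream, with 7.08 and 1.85.

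Genes that assemble or complete the chain but are outside the naming rule were counted in the same way. Of 44 such genes, 42 had a promoter peak in replicate 1, 41 in replicate 2 and 33 an overlapping one, with medians of 10.4 and 2.51. Cycs, the somatic cytochrome c that carries electrons from complex III to IV, had 21.8 and 3.07, while its testis form Cyct had none. Sdhaf1, an assembly factor of complex II, had none either, and Coa3 had a peak of 4.11 in replicate 1 only. Peaks that did not overlap were found at Cox16, Coa5, Coa7, Uqcc2, Uqcc3, Sdhaf3, Nubpl and Higd1a.

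Of 17 regulators of mitochondrial genes, all had a promoter peak in replicate 1, 14 (82.4%) in replicate 2 and 13 (76.5%) an overlapping one. The shares of all genes were 66.7%, 51.4% and 45.0%. Nrf1 had 12.4 and 2.57, and Esrra, the estrogen-related receptor of oxidative tissues, had 24.3 and 3.39. The mitochondrial transcription factor gene Tfam had 12.9 and 2.33. Ppargc1a, the PGC-1alpha coactivator gene, had low peaks of 0.567 and 1.04 that did not overlap. Esrrb, Esrrg and Ppara had a peak in replicate 1 only, at 1.39, 5.23 and 2.69.

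The ribosomal protein genes, a housekeeping group that most cells keep active, give a scale for these counts. Of 85 cytoplasmic ribosomal protein genes, 82 had a promoter peak in replicate 1, 81 in replicate 2 and 70 an overlapping one (82.4%), with medians of 10.6 and 2.81. Of 78 mitochondrial ribosomal protein genes, 78, 75 and 64 (82.1%) did, with medians of 7.93 and 2.21. Of all genes, 66.7%, 51.4% and 45.0% did, with medians of 6.30 and 2.03. The share of oxidative phosphorylation genes with an overlapping peak was 74.5% over all 94, and 81.4% without the 8 restricted isoforms. No gene was left out of the ribosomal groups, where Rpl10l, Rpl39l and Rpl3l had no promoter peak in either library. No test was made of these differences.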

How the data were processed

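Per the labels, each library was processed alone. Which aligner and callers were used is not given in the sources used here. On mm10, the authors deposited 2 peak lists per library whose value is a signal, the read-depth-normalized height; intervals with a false discovery rate, a p-value adjusted by the authors, of at most 0.05; and footprints whose deposited score is 0.01 throughout. The shorter peak list was used. Peaks were joined to GENCODE M21 starts of protein-coding genes with Python 3.11.15 and pandas 2.3.3. The overlap code was checked against bedtools 2.31.1, and peak and motif code were tested on simulated data, with 0 errors in 3186 overlap pairs, 200 planted peaks and 200 planted motifs. Sequences are RefSeq's, build GRCm38.p6. With 1 group of 2 libraries no test was made; counts stand beside those of all 21911 genes. Members and lists were chosen with earlier results of these data known. Named genes are all isoform-family members, up to 4 per complex by rank sum of heights, all without a promoter peak in a library, the 6 with most distal peaks (shared, and per library), the 3 extreme height ratios at each end, and listed genes without a shared peak; a few further examples were chosen after their values were seen. Alternatives changed the peak list, overlap, window, starts and genes counted. The details of 1 distal peak are not reported here.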

Additional observations from a re-analysis of the deposited data

How the results depend on the processing

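The counts of promoter peaks kept their size under most alternatives. Overlapping promoter peaks were found at 65 to 80 of the 94 genes across the other peak lists, a merged list, windows of 500 bp and 2 kb, protein-coding transcripts only and a 1 bp overlap. They fell to 37 when 50% of both peaks had to overlap, which left 1 of the 3 ubiquitous isoforms (Cox6a1), and were 40 over the 57 genes with no other start nearby. Without replicate 1 or without replicate 2, the genes with a promoter peak numbered 84 to 88, the muscle isoforms 0 to 1 and the ubiquitous isoforms 3. With the longer peak lists 1 muscle isoform (Cox7a1) had a shared promoter peak.

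Distal counts depended on the list and the distance. For replicate 1, replicate 2 and shared peaks they were 728, 151 and 110 with the longer lists, 261, 39 and 33 with the tallest 50% of peaks, 172, 28 and 19 within 20 kb, 864, 134 and 98 within 100 kb, and 120, 17 and 13 when the nearest start had to be a member's. At equal peak number replicate 1 had 122. Motif letters were also counted inside shared peaks of replicate 1 alone, with less sequence and only 57 windows searched. They were then in 17 genes for CCAAT, 10 for SP1, 5 for TEAD, 2 for TATA and 0 for ZNF143. For NRF1 they were in 19. No paired analysis was possible because there is 1 group. The read depth of the libraries is unknown, so a missing peak is one not called in that list; the part of depth in the missing peaks of replicate 2 was not tested.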
